A study of Mus with 9 samples.

Results

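A set of 9 genes of myelin and of the oligodendrocyte lineage was followed through the hippocampal averages of SAMR1, SAMP8 and TG-treated SAMP8 mice. Their symbols were looked up as exact entries in the gene symbol column of both deposited tables, and each of the 9 genes was found with 1 probe set of its own, out of 22206 probe sets in all. The 6 structural genes were Mbp, Mog, Mag, Mobp, Cnp and Opalin, and the 3 lineage factors were Olig1, Olig2 and Sox10. SAMP8 is an inbred strain with accelerated senescence, and SAMR1 is the related senescence-resistant strain that served as the normal aging control. Male mice aged 16 weeks were used, and hippocampal RNA was hybridized to Clariom S Mouse arrays, 3 per group by the sample records and the methods, although the series text speaks of duplicates. The SAMR1 and SAMP8 groups received vehicle (saline in the records, water in the methods), whereas the TG-treated SAMP8 group received trigonelline, a plant alkaloid abbreviated TG, in a daily oral dose of 5 mg/kg over 30 days and during 8 further days of water maze testing. The strains differ throughout the genome, so that strain and any difference of sequence under the probes cannot be told apart in comparisons with SAMR1.

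Myelin is the compacted membrane that oligodendrocytes wrap around axons in the brain, where it speeds conduction and supports the axon. Olig1, Olig2 and Sox10 encode transcription factors that specify the lineage and later switch on the myelin genes, whose products build the sheath. In the hippocampus, myelin is found mainly in the alveus and the fimbria, on the perforant path and around the axons of interneurons, beside a large population of resident precursor cells.

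The values are the authors' group averages of the log2 signal, which have no SD, no n and no test here, because values per array were not analysed for these genes. A difference of 1 on this scale is a 2-fold difference. A gene was counted as past the limit when 2 averages differed by more than 1.5-fold, or 0.58 on the log2 scale. No difference below can therefore be set against the spread between mice. Over all probe sets the averages lay between 2.39 and 19.93. Their median was 6.09 for SAMR1, 6.04 for SAMP8 and 6.07 for the TG group. Both tables held identical SAMP8 averages, so the strain difference and the TG difference share them with opposite sign, and a high or low SAMP8 average moves both.

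All 9 genes had a higher average in TG-treated SAMP8 than in SAMP8, by 0.10 to 0.71 on the log2 scale. Of the 6 structural genes, 5 were lower in SAMP8 than in SAMR1, and Cnp was higher. Among the lineage factors, Olig1 and Olig2 were higher in SAMP8 than in SAMR1, and Sox10 was lower. In TG-treated SAMP8 the median structural gene stood 0.075 above SAMR1 on the log2 scale, and the median lineage factor 0.51 above it. In whole tissue, fewer oligodendrocytes and less RNA per oligodendrocyte cannot be told apart.

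**Figure D1:**
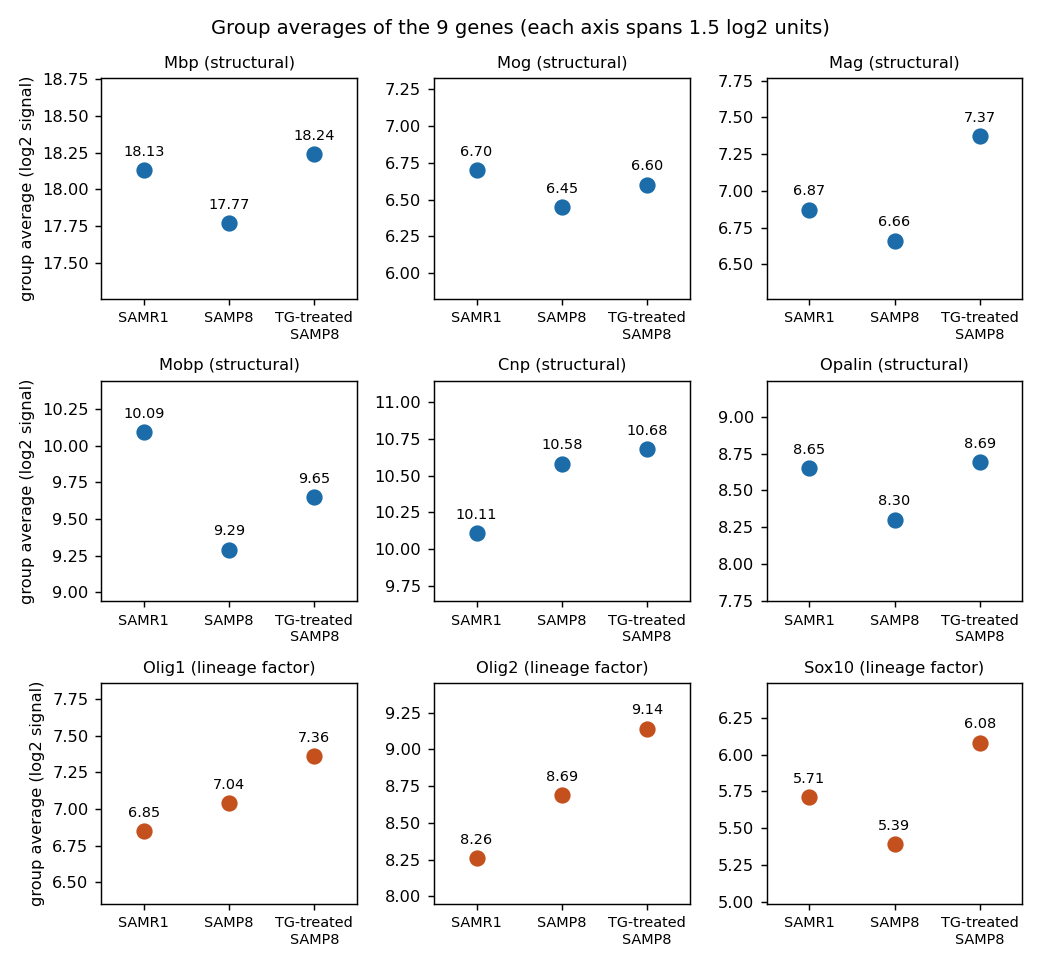
Group averages (log2 signal, vertical axis) of the 6 structural myelin genes (blue) and the 3 lineage factors (orange) in SAMR1, SAMP8 and TG-treated SAMP8. Each point is the authors' average of a group, so there are no error bars, and each axis spans 1.5 log2 units around the gene's own level. The SAMP8 point is the lowest for Mbp, Mog, Mag, Mobp, Opalin and Sox10, whereas SAMR1 is the lowest for Cnp, Olig1 and Olig2.

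Mbp encodes myelin basic protein, which holds the cytoplasmic faces of the sheath together. The gene lies on chromosome 18 from 82475091 to 82585637 (mouse genome build GRCm38, as for all positions here). It averaged 18.13 in SAMR1 mice, 17.77 in SAMP8 mice and 18.24 with TG. SAMP8 was thus the lowest group, 0.36 below SAMR1 and 0.47 below TG-treated SAMP8 on the log2 scale, and the TG group came out 0.11 above SAMR1. These averages lie near the top of the scale. Among the 103 probe sets with a mean average above 17, the median size of the TG difference was 0.14, and 6 of the 103, Mbp included, were higher with TG by at least as much as Mbp. In the strain comparison, 10 of the 103, Mbp included, lay as low as Mbp or lower.

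Mobp and Opalin had the same order of SAMP8 below SAMR1, with different levels under TG. Mobp, for a small basic protein of compact myelin, lies on chromosome 9 from 120149742 to 120181488. Mobp averaged 10.09 in SAMR1 mice, 9.29 in SAMP8 mice and 9.65 with TG. Its strain difference of -0.80 (1.74-fold lower in SAMP8) was the deepest of the 9 genes and lay at the percentile 2.71 of all probe sets. With TG, Mobp was 0.36 above SAMP8 and still 0.44 below SAMR1, the lowest TG average relative to SAMR1 among the 9. Opalin, for a membrane protein of the paranodal and inner loops, lies on chromosome 19 from 41061959 to 41077113. Opalin averaged 8.65 in SAMR1 mice, 8.30 in SAMP8 mice and 8.69 with TG, and the SAMR1 and TG averages differed by 0.04.

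Mag and Mog encode the minor glycoproteins of the sheath, of which Mag faces the axon and Mog the outer surface. Mag lies on chromosome 7 from 30899175 to 30914922, and it averaged 6.87 in SAMR1 mice, 6.66 in SAMP8 mice and 7.37 with TG. The TG difference of 0.71 (1.64-fold) was the highest of the 9 genes, at the percentile 97.6 of all probe sets, and it left Mag 0.50 above SAMR1. Mog lies on chromosome 17 from 37010740 to 37023398. Its averages of 6.70, 6.45 and 6.60 in the same order of groups spanned 0.25. The TG difference of Mog was 0.15, at the percentile 69.4, well below that of Mag, while both stood lower in SAMP8 than in SAMR1, by 0.25 for Mog and 0.21 for Mag.

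Cnp encodes a phosphodiesterase of the uncompacted channels of the sheath and is an early gene of the differentiating oligodendrocyte. It lies on chromosome 11 from 100574909 to 100591875. It averaged 10.11 in SAMR1 mice, 10.58 in SAMP8 mice and 10.68 with TG. Cnp was the only structural gene of the 6 with a higher average in SAMP8 than in SAMR1, by 0.47 (1.39-fold), and it had the smallest TG difference of the 9 genes, 0.10. In TG-treated SAMP8 it stood 0.57 above SAMR1, just inside the 1.5-fold limit.

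Olig1 and Olig2 encode related basic helix-loop-helix factors, of which Olig2 specifies the lineage and is kept from precursors to mature oligodendrocytes, while Olig1 acts mainly in maturation. They are neighbours on chromosome 16, Olig2 from 91225550 to 91228677 and Olig1 from 91269769 to 91271939, with 41.1 kb between them. Olig2 averaged 8.26 in SAMR1 mice, 8.69 in SAMP8 mice and 9.14 with TG. The steps of 0.43 between the strains and 0.45 with TG added to 0.88 (1.84-fold) between TG-treated SAMP8 and SAMR1, the largest difference found for any of the 9 genes in the 3 comparisons. Olig1 had the same order on a smaller range, with averages of 6.85, 7.04 and 7.36. It was 0.19 higher in SAMP8 than in SAMR1 and a further 0.32 higher with TG.

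Sox10 encodes the high-mobility-group factor that acts with Olig2 and Myrf on the myelin genes. The gene lies on chromosome 15 from 79154913 to 79164490. Unlike Olig1 and Olig2, Sox10 was lower in SAMP8 (5.39) than in SAMR1 (5.71), a difference of -0.32. It averaged 6.08 in TG-treated SAMP8. The SAMR1 and SAMP8 averages of Sox10 lay below the medians of all probe sets in these groups, 6.09 and 6.04. Its TG difference of 0.69 (1.61-fold) lay at the percentile 97.3 of all probe sets and was close to that of Mag. Sox10 thus had the order of groups seen for Mbp, Mag and Opalin, with SAMP8 lowest and TG-treated SAMP8 highest.

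In the strain comparison, 1 of the 9 genes, Mobp, was past the 1.5-fold limit and lower in SAMP8, and 0 were past it and higher. Over all probe sets, 6.08% were past the limit and lower in SAMP8, and 5% were past it and higher. The average of SAMP8 was above that of SAMR1 for 3 of the 9 genes and for 49.5% of all probe sets. The medians were -0.30 for the structural genes, 0.19 for the lineage factors and 0.00 for all probe sets. The structural minus lineage median was -0.49, but the ranges overlapped, from -0.80 to 0.47 for the structural genes and from -0.32 to 0.43 for the lineage factors. Cnp lay above all 3 lineage factors, and Sox10 lay among the structural genes that were lower. Without Olig2 the lineage median turned to -0.065, so its sign rests on this gene.

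With TG, Mag and Sox10 were past the limit and higher, 2 of 9 genes beside 4.48% of all probe sets, and 0 of the 9 were past it and lower, beside 3.74% of all probe sets. At any size, 9 of the 9 genes were higher with TG, whereas 50% of all probe sets were. The structural genes had a median of 0.38 and the lineage factors of 0.45, against 0.01 for all probe sets, and the structural minus lineage median was -0.075, with no test. The ranges overlapped here too, from 0.10 to 0.71 and from 0.32 to 0.69. The 9 genes are expressed in cells of the same lineage and are not independent of each other, and their number is small. They were also chosen with earlier results of these data known.

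The comparison of TG-treated SAMP8 with SAMR1 was formed from the averages of both tables. Only Olig2 was past the limit, and it was higher, while 5.62% of all probe sets were past the limit and higher and 4.83% past it and lower. The TG-treated average was above that of SAMR1 for 7 of the 9 genes and for 48.1% of all probe sets. All 3 lineage factors were higher (0.37 to 0.88), and the structural genes lay on both sides of SAMR1 (-0.44 to 0.57). Mbp, Opalin and Mog were within 0.11 of SAMR1, Mobp was lower, and Mag and Cnp were higher. The structural minus lineage median was -0.435.

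**Figure D2:**
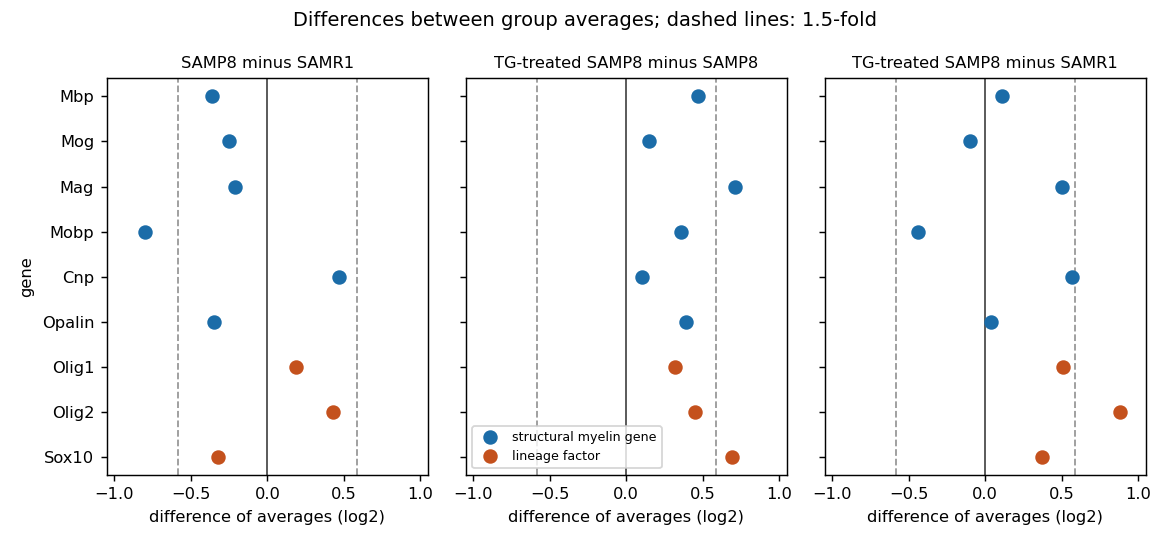
Differences between group averages (log2, horizontal axis) of the 9 genes in the 3 comparisons, with structural genes in blue and lineage factors in orange. Dashed lines mark 1.5-fold, and error bars are missing because only the group averages were used. All 9 points lie to the right of 0 for TG-treated SAMP8 against SAMP8, and both roles fall on both sides of 0 for SAMP8 against SAMR1.

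The 9 genes were then set beside a list of 36 other myelin sheath and mature oligodendrocyte genes, of which 35 had a probe set of their own. With TG, 20 of the 35 were higher and 15 lower, with a median of 0.18, and the 3 past the limit were higher, against 0 that were lower. Mal, for a proteolipid of compact myelin, resembled Mbp in order with wider steps (13.91, 13.39 and 14.20), and its TG difference was 0.81. Cldn11, for the tight junction protein of the sheath, stood at 8.74, 9.10 and 9.81, the order of Olig2, and was 0.71 higher with TG and 1.07 above SAMR1. Other sheath genes were lower with TG, such as Fa2h (-0.41) and Apod (-0.37), so this list did not share the single direction of the 9 genes.

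Between the strains, the list of other sheath genes was even. SAMP8 was higher for 19 of the 35 genes, lower for 15 and equal for 1, the median was 0.02, and 2 genes were past the limit upward and 3 downward. Apod, for a lipid carrier, was 0.75 higher in SAMP8, and Cntn2, for a contactin at the juxtaparanode, was 0.59 higher, which exceeds the limit by less than the 0.01 step of the averages. Car2, for the carbonic anhydrase of oligodendrocytes, was lower in SAMP8 (13.84 in SAMR1 and 12.87 in SAMP8), as was Plxnb3, a plexin receptor, with a difference of -0.75. Car2 averaged 13.53 in TG-treated SAMP8, which is 0.66 above SAMP8. Adding these 35 genes to the 6 structural ones brought the strain median from -0.30 to 0.00, and the TG median to 0.20.

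Other transcription factors of the lineage were examined in the same way (21 genes, 20 with a probe set of their own). Their medians were 0.03 between the strains and 0.015 with TG, where 11 were higher and 9 lower. Myrf, the factor that switches on myelin genes in mature oligodendrocytes, averaged 9.54, 9.16 and 9.50 across SAMR1, SAMP8 and TG. This is the order of Mobp and Mog, with a return to within 0.04 of SAMR1. Nkx2-2, a factor of the differentiating precursor, stood at 4.27, 4.46 and 4.34. Id2, an inhibitor of basic helix-loop-helix factors that many cell types express, was 0.87 higher with TG and the only one of the 20 past the limit in that comparison. Tcf7l2 (0.76), Sox6 (0.71) and Zfp488 (0.71) were higher in SAMP8 than in SAMR1, and Sox5 was lower (-0.61). Tcf7l2, Sox5 and Sox6 are also expressed by neurons, Tcf7l2 in particular in the thalamus. The lineage list was then extended by these 20 genes, and the structural list by the other sheath genes above. With both lists extended, the structural minus lineage median was 0.17 with TG and 0.09 for TG-treated SAMP8 against SAMR1, both turned in sign.

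Genes of precursors and committed precursors had no common direction under TG. Between the strains 13 of them were higher in SAMP8 and 7 lower, with a median of 0.10. With TG, of the 20 with a probe set of their own, 8 were higher and 12 lower, with a median of -0.075. Pdgfra, the growth factor receptor that defines precursors, is measured by a probe set shared with a microRNA gene, with averages of 6.75, 6.87 and 6.61. Cspg4, the proteoglycan NG2 of the same cells, stood at 5.70, 6.25 and 6.11. Gpr17, a receptor of committed precursors, had averages of 7.20, 7.41 and 7.13. All 3 markers were highest in SAMP8 and lower with TG, by 0.26, 0.14 and 0.28, in contrast to Olig1 and Olig2, which precursors express too. Cd9, a tetraspanin that other glia and vessels also express, was the only one of the 20 past the limit and higher with TG (9.43, 8.79 and 9.67), with a difference of 0.88. Tnr, for an extracellular matrix protein, was 0.64 lower with TG. Neu4, a sialidase, was lower in SAMP8 than in SAMR1 by a difference of -0.74.

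Among 19 ligands and receptors of myelination with their own probe sets, the medians were -0.03 between the strains and -0.01 with TG. Nrg1, a neuregulin ligand, was lower in SAMP8 (8.10 in SAMR1 and 7.22 in SAMP8), and so was Erbb3, one of its receptors (4.95 and 4.19). With TG, Erbb3 was higher by 0.59, within 0.01 of the limit, whereas Nrg1 was higher by 0.31. Erbb4, another neuregulin receptor of the list, went the other way in both comparisons. It was higher in SAMP8 (10.13 in SAMR1 and 10.36 in SAMP8), and its TG difference was -0.28. Erbb3 lies low on the scale, below the median of all probe sets in each group.

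**Figure D3:**
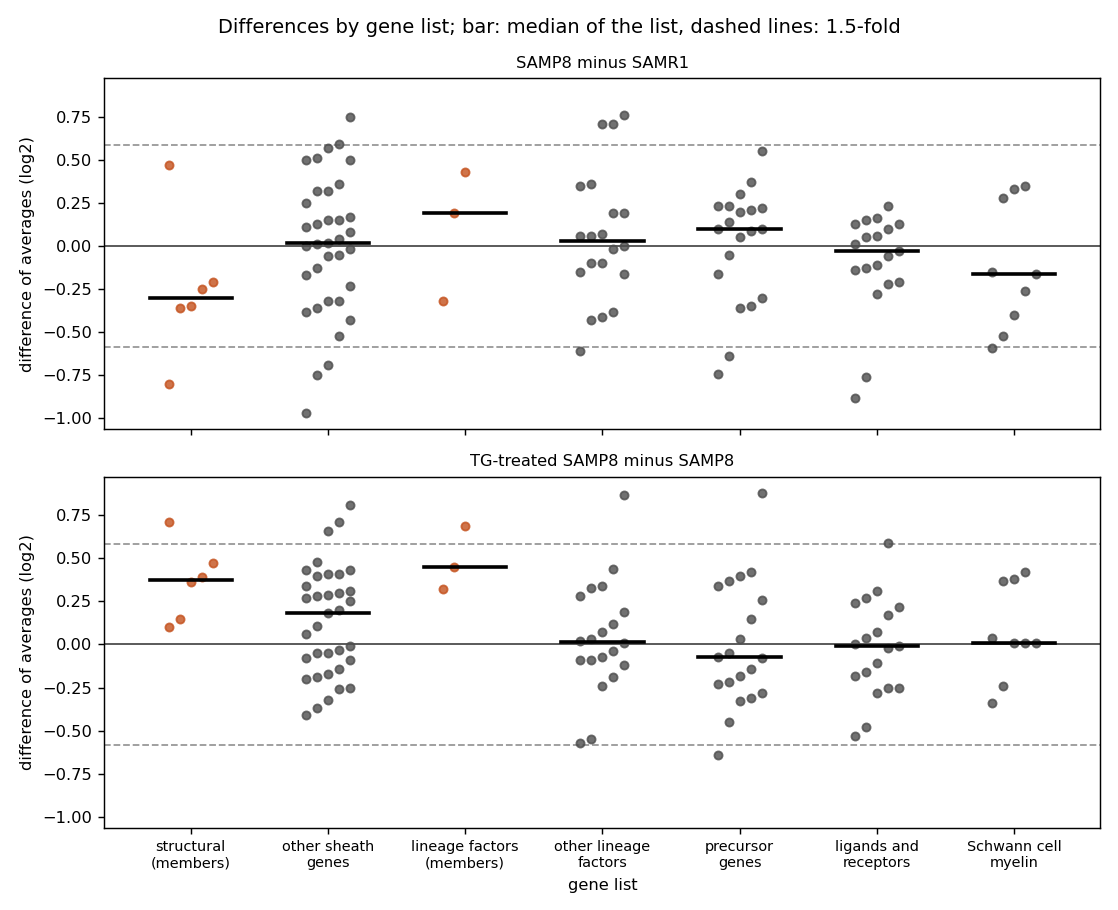
Differences of group averages (log2, vertical axis) for the 9 genes (orange, in their 2 roles) and for 5 other lists of oligodendrocyte and myelin genes (grey), between the strains (top) and with TG (bottom). Each point is a gene with a probe set of its own, the black bar is the median of the list, and dashed lines mark 1.5-fold. In the lower panel the medians are 0.38 and 0.45 for the 9 genes, 0.18 for the other sheath genes and between -0.075 and 0.015 for the other 4 lists plotted.

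The tissue label was examined with marker genes. The averages of 11 hippocampus markers lay between 5.20 (Spink8) and 14.86 (Neurod6) in SAMR1, and their medians were 0.20 between the strains and 0.04 with TG. With TG, Prox1, a marker of dentate granule cells, was the only one of the 11 past the limit, with a difference of -0.85. For 9 genes of peripheral myelin, which Schwann cells make, the medians were -0.16 and 0.01, and TG-treated SAMP8 had the higher average for 7 of the 9. The brightness of a probe set cannot show that an RNA is absent. The strain and TG medians of the 12 neuron markers were 0.105 and 0.00, those of the 10 astrocyte markers 0.145 and -0.03, and those of the 10 microglia markers -0.17 and -0.115. For 9 endothelial markers the medians were 0.52 and -0.22.

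Of the lists of markers for tissue around the hippocampus, the meninges list had the largest median in size, both between the strains and with TG. The 12 meninges markers had a mean average of 6.87 in SAMR1, 7.22 in SAMP8 and 6.48 with TG. With TG, 8 of the 12 were lower, 7 of them past the limit, with a median of -0.645 against 0.37 between the strains, and Ptgds (-2.69), Igf2 (-1.89) and Fmod (-1.88) were the lowest. Ptgds is also made by oligodendrocytes, and it averaged 9.39, 10.26 and 7.57, highest in SAMP8 and lowest with TG, the reverse of Mbp, Mag, Opalin and Sox10. Of 11 thalamus markers, Prkcd (-1.50) and Plekhg1 (-1.06) were lower with TG by more than 2-fold, Tnnt1 (0.66) and Synpo2 (0.63) were higher past the limit, and the list had medians of 0.23 between the strains and -0.04 with TG. The 9 choroid plexus markers had medians of -0.01 and 0.29, and with TG Ttr (0.72) and Sostdc1 (0.66) were higher past the limit and Kl (-0.79) was lower past it. The 9 striatum markers had medians of -0.02 and -0.07. Whether the share of white matter or of neighbouring tissue in the samples had a part in the myelin values was not tested.

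The TG difference also varied with the genomic length of genes, in classes chosen after the data were seen. Of the probe sets whose gene spans up to 10 kb, 60.1% were higher with TG, with a median of 0.07, and of those over 100 kb 33.1% were, with a median of -0.12. Olig1 (2.17 kb), Olig2 (3.13 kb) and Sox10 (9.58 kb) belong to the short genes, whose share past the limit upward was 6.64%. Mog, Opalin, Mag and Cnp span between 12.7 and 17.0 kb, a class with a median of 0.01. Mobp, with 31.7 kb, is in a class with a median of -0.04, and Mbp, with 110.5 kb, in the longest class. The TG differences of Mbp (0.47) and Mobp (0.36) thus ran against the direction of their length classes, and those of the lineage factors ran with it. The strain difference varied with length in the opposite direction, as 41.7% of the probe sets up to 10 kb and 61.2% of those over 100 kb were higher in SAMP8. Mbp was lower in SAMP8 and Olig1 and Olig2 were higher, each against the more frequent direction of its class, whereas Sox10 was lower, as most short genes were. The part of gene length in these values was not tested.

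The background also varied with signal, in classes of the mean of the 3 averages that were likewise chosen after the data were seen. From 6 to 8, where Mog, Mag and Olig1 lie, 54.2% of probe sets were higher in SAMP8 than in SAMR1, and 48.0% were higher with TG. From 8 to 10, the class of Mobp, Opalin and Olig2, the shares were 66.3% and 41.8%. From 10 to 12, the class of Cnp, they were 68.7% and 38.8%. Up to 6, where Sox10 lies, they were 36.7% and 56.8%, and above 17, the class of Mbp, 47.6% and 35.9%. The lower SAMP8 averages of Mog, Mag, Mobp and Opalin thus ran against the more frequent direction at their signal. The lower SAMP8 average of Sox10 ran with it, as did the higher SAMP8 averages of Cnp, Olig1 and Olig2. In the class of Mbp the median strain difference was 0.

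**Figure D4:**
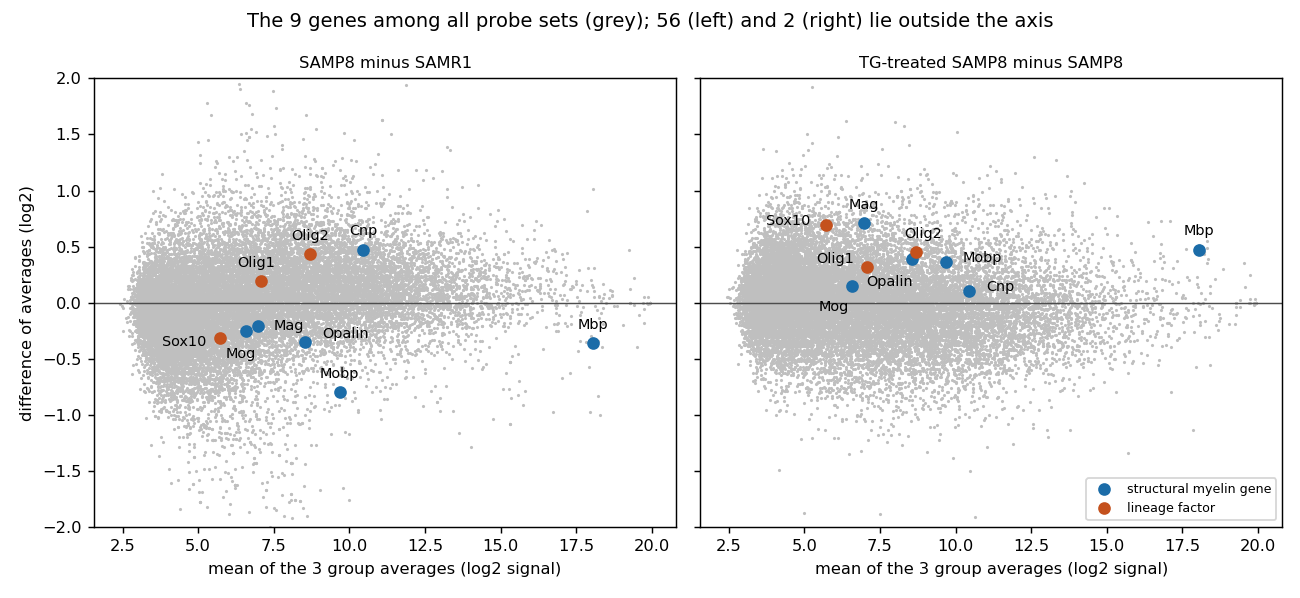
Difference of group averages (log2, vertical axis) against the mean of the 3 group averages (log2 signal, horizontal axis) for all probe sets (grey) and the 9 genes (structural in blue, lineage factors in orange). The vertical axis ends at 2 in both directions, and 56 probe sets on the left and 2 on the right lie outside it. Mobp lies in the lower part of the cloud for SAMP8 against SAMR1, at the percentile 2.71 of all probe sets. All 9 genes lie above 0 for TG-treated SAMP8 against SAMP8.

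Genes outside all lists with a like pattern were sought among 10484 probe sets of 1 symbol with an average above the median. The distance was taken over the 2 differences, strain and TG, from 3 group averages. Nearest to the median structural gene (-0.30 and 0.38) were Flg, Arfip2, Dnttip1, Npy and Cyb561d1, at distances of 0.011 to 0.032, and 129 probe sets lay within 0.1. Nearest to the median lineage factor (0.19 and 0.45) were Elavl3, Gde1, Grm4, Top1 and Ubald1, at distances of 0.01 to 0.022, with 86 probe sets within 0.1. With 3 averages per gene such patterns are shared by many genes.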

How the data were processed

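Hippocampal total RNA was hybridized to Clariom S Mouse arrays, 3 per group by the records. The authors summarized the scans by SST-RMA in the Transcriptome Analysis Console, and the deposited tables, 1 per comparison, hold the authors' group averages of log2 signal with 2 decimals. The fold changes, p-values and adjusted p-values that the authors deposited beside them were not used, so no test or SD is given. The small number of arrays limits precision. The records also carry a text on a macrophage cell line, which was not used.

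Samples were grouped by title. Differences of averages were taken per probe set and per gene (mean of probe sets with exactly that symbol). Septin4, whose symbol had become a date, was matched by its description. Positions and lengths are from RefSeq (GRCm38), which placed 89.5% of probe sets. The counting was tested on simulated data. The members and gene lists were chosen with earlier results of these data known. Genes named are the 9 members, Mal, Cldn11, Myrf, Nkx2-2, Pdgfra, Cspg4 and Gpr17, the 2 highest and 2 lowest past the limit in each oligodendrocyte list (ties kept), other markers past 2-fold, and the 5 nearest in pattern. Fa2h, Erbb4, Neurod6, Prox1, Ttr, Sostdc1, Kl, Tnnt1 and Synpo2 were chosen after their values were seen. Some genes of the lists are not reported here. Alternatives were the limit, scaling, choice of probe set, wider lists and leaving out each gene. Python 3.11.15, pandas 2.3.3, numpy 2.4.6, scipy 1.17.1 and matplotlib 3.10.9 were used.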

Additional observations from a re-analysis of the deposited data

How the results depend on the processing

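No paired analysis was possible because the columns are group averages and carry no replicate number. Centring on the median of all probe sets and quantile normalization of the averages moved no median of the structural genes or lineage factors by 0.1 or more. They also changed no count of the 9 genes past 1.5-fold. Centring shifts all genes of a comparison alike, so it could not change the structural minus lineage difference. Each of the 9 genes had 1 probe set, so taking the brightest could not change a value. Adding probe sets of several symbols changed none. With a lower limit of 0.32 on the log2 scale, 5 genes were past it between the strains, 6 with TG and 6 for TG-treated SAMP8 against SAMR1, and at 2-fold 0 were in each. By means, the structural minus lineage difference between the strains was -0.35. With the other genes of each role added, the structural medians were 0.00 between the strains and 0.20 with TG, the lineage medians 0.06, 0.03 and, against SAMR1, 0.03, and the structural minus lineage differences -0.06, 0.17 and 0.09 in the order of the 3 comparisons, the last 2 opposite in sign to those of the 9 genes. When each gene was left out in turn, the lineage median ran from -0.065 to 0.31 between the strains, from 0.385 to 0.57 with TG and from 0.44 to 0.695 against SAMR1. The structural minus lineage difference ran from -0.61 to -0.235, from -0.195 to -0.01 and from -0.62 to -0.365. With 3 lineage factors these medians rest on single genes. Without the probe sets whose mean average lay below the lower quartile, 12.6%, 9.64% and 12.3% of all probe sets were past 1.5-fold in the 3 comparisons.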

Other observations

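Other markers differed between the strains by more than 2-fold. Aif1, a calcium-binding protein of microglia, was 1.51 higher in SAMP8 than in SAMR1 on the log2 scale. The microglia receptor Cx3cr1, named after its values were seen, differed by -0.31. Of the 10 microglia markers, 3, Aif1 included, were past 1.5-fold and higher in SAMP8, and 2 were past it and lower. Abcb1a, a transporter of the endothelium, was 4.32 higher in SAMP8, Spink8, a marker of pyramidal neurons, 1.30 higher, Penk, an opioid precursor, 1.28 higher, and the meninges genes Igf2 and Fmod 1.58 and 1.43 higher. No cause was tested for any of these.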
